A study of Mus musculus with 6 samples.

Results

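The miR-26 and miR-101 families were read on 1-colour microarrays in sorted mouse cells from skin and from wounds. They were chosen by name, not by signal: all array names built on miR-26a, miR-26b, miR-101a or miR-101b were taken, with both arms of each precursor. The array held 6 such names among 690 mouse miRNA names, and they were measured with 16 probes. These were mmu-miR-26a-5p, mmu-miR-26b-5p, mmu-miR-26b-3p, mmu-miR-101a-3p, mmu-miR-101a-5p and mmu-miR-101b-3p, where mmu stands for mouse and is left out below. The cells came from transgenic SMA-GFP mice, in which green fluorescent protein reports smooth muscle actin, a protein of contractile cells, and lacked CD45, a marker of blood cells, and CD31, a marker of endothelium. The skin group (GFP-low, called fibroblast-like by the submitters) had weak GFP, and the wound group (GFP-high, called myofibroblasts) had strong GFP and was taken 7 days after injury. Each group had 3 preparations of total RNA on 1 array each, numbered as in the labels: 1, 2 and 5 for skin, 3, 4 and 6 for wound. Tissue and GFP level differed together between the groups. Strain, age and the number of animals behind a preparation were not given in the sources used here, so the spread that p-values rest on is that among preparations and could be technical alone. In a total RNA preparation, fewer cells carrying a miRNA and less of it per cell cannot be told apart.

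MicroRNAs are short RNAs that guide a silencing complex to messenger RNAs, mainly through their seed, the bases 2 to 8 from the 5′ end. Both families are known as repressors of Ezh2, the methyltransferase of Polycomb repressive complex 2, which writes a repressive mark on histone H3. miR-26 and miR-101 are generally described as abundant in resting, differentiated cells and as lowered in proliferating ones, and both have been linked to restraint of fibrosis. No messenger RNA was measured on these arrays, so the level of Ezh2 was not analysed here.

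The mature sequences of all 6 names were found among RefSeq records (build GRCm38.p6). They are printed because the members of a family differ by few bases. The seed is in capitals.
miR-26a-5p: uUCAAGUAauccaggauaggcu
miR-26b-5p: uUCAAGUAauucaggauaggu
miR-101a-3p: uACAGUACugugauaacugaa
miR-101b-3p: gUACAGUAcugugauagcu
miR-26b-3p: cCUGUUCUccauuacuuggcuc
miR-101a-5p: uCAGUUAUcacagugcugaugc

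miR-26a-5p and miR-26b-5p shared the seed UCAAGUA, which no other of 1679 mature mouse names in the reference carried. Over 21 aligned bases they differed by 2 substitutions, C11U and C21U (the base of miR-26a-5p, its position from the 5′ end, then the base of miR-26b-5p). miR-101b-3p, as the reference gives it, starts 1 base further 5′ than miR-101a-3p. Its seed by position was therefore UACAGUA, against ACAGUAC for miR-101a-3p. Over the 18 bases that the 2 records share they differed by 1 substitution, A16G, counted from the 5′ end of miR-101a-3p. Probe sequences were not used here, and signal shared between such near-identical miRNAs was not tested.

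The 6 names come from 5 loci. miR-26b-5p lies at chr1:74394324-74394344 on the plus strand, within the span of Ctdsp1. miR-101a-3p lies at chr4:101346957-101346977 on the minus strand, within the noncoding gene E130102H24Rik. miR-101b-3p lies at chr19:29135338-29135356 on the plus strand, within Rcl1. miR-26a-5p is encoded at 2 loci, and these precursors are shown because an array cannot tell which of them the mature strand came from. The capitals mark miR-26a-5p, at chr9:119031811-119031832 within Ctdspl and at chr10:126995543-126995564 within Ctdsp2, on the plus strand at each. Ctdsp1, Ctdsp2 and Ctdspl encode related small phosphatases that act on the tail of RNA polymerase II.
Mir26a-1: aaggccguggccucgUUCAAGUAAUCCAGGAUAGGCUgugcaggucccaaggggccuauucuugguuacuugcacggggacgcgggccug
Mir26a-2: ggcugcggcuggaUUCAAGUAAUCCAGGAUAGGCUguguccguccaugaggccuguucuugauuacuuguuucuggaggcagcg

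All 6 arrays lay on 1 slide. Between 187 and 224 names were well above background on a skin array and between 211 and 233 on a wound array (over 50% of the spots of at least 1 probe carried the scanner's flag). A log2 level of 0 stands for the 75th percentile of an array's probes that were well above background on every array, which was 786 to 1772 intensity units. The median local background was 49.0 to 55.5 units. Markers were read as a check of the labels. All 5 names of the mesenchyme and fibroblast list (miR-199a, miR-199b and miR-214) were well above background on every array, and 2 of them were lower in wound in limma (miR-199a-3p by -0.62, miR-199b-5p by -0.75). Both tested names of the contractile smooth muscle list were higher in wound (miR-143-3p by 1.24, miR-145a-5p by 0.65), as were 44.1% of all tested miRNAs. The summed level of that list was 0.176 to 0.206 times the scaling percentile in skin and 0.422 to 0.444 in wound. Of these names, miR-145a-5p was well above background on 2 skin and 3 wound arrays. It was tested only through the wound arrays, which favoured that direction, so it is no check of the labels. The endothelial miR-126-3p stood well above background on each of the 6 arrays, although the cells were sorted as CD31-negative, and differed by 0.50 without passing (adjusted p = 0.11 in limma), with a summed level of its list of 0.0362 to 0.0583 in skin and 0.0555 to 0.0773 in wound. Of 8 striated muscle names, none was well above background on any array. Among 7 blood cell names the exception was miR-451a, on 2 skin arrays. Of 12 keratinocyte names, miR-205-5p and miR-203-3p stood well above background on each skin array but on no wound array, and the other 10 on no array at all. The summed level of the keratinocyte list was 0.12 to 0.204 times the scaling percentile in skin and 0.00513 to 0.0092 in wound, so it moved in the same direction as the miR-26 and miR-101 families; the part of these lists in the differences was not tested.

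The numbering of the samples was not the same throughout the deposit. In the authors' table of log2 values, 6 of 6 columns equalled an array other than the one with the same number in its title. They were compared up to 1 constant per array, over rows above a column's lowest value. The columns numbered 1, 2 and 3 equalled the arrays titled wound 3, 4 and 6, and those numbered 4, 5 and 6 equalled the arrays titled skin 1, 2 and 5. Groups here follow the array titles. With the table's own numbers none of the 4 tested members passed and their differences changed sign.

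The first question was whether the leading strands of the miR-26 family differed between wound myofibroblasts and skin cells, and both were lower in the wound cells. For mmu-miR-26a-5p, the log2 level was 1.86, 2.08 and 1.88 on skin arrays 1, 2 and 5, and 0.32, 0.37 and 0.23 on wound arrays 3, 4 and 6. The groups did not overlap, and the gap between them was far wider than the spread within either. The level fell from 1.94 ± 0.12 (mean ± SD, n = 3) to 0.31 ± 0.07, a 3.1-fold decrease (95% interval 2.69 to 3.56, log2 difference -1.63, SE 0.08, adjusted p = 3.7e-05 in limma).

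mmu-miR-26b-5p, the paralog with the same seed, varied little between replicates. Its log2 level was 0.47, 0.44 and 0.55 on skin arrays 1, 2 and 5 and -1.30, -1.18 and -1.31 on wound arrays 3, 4 and 6. Again every wound array lay below every skin array. The level fell from 0.49 ± 0.05 to -1.26 ± 0.07 (n = 3 each), a 3.37-fold decrease (95% interval 3.06 to 3.70, log2 difference -1.75, SE 0.05, adjusted p = 5.7e-06 in limma).

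The decrease was visible in the intensities before any scaling, which also hold a difference in brightness between whole arrays. The scaling percentile was 1487, 1244 and 1772 units on skin arrays 1, 2 and 5 and 786, 1095 and 1136 on wound arrays 3, 4 and 6. Without scaling the log2 difference of miR-26a-5p was -2.21. The scanner's total signal for miR-26a-5p was 6341, 6048 and 7486 units on skin arrays 1, 2 and 5 and 1126, 1656 and 1542.5 on wound arrays 3, 4 and 6. For miR-26b-5p it was 2428, 1942 and 2965.5 units in skin and 365.2, 563.1 and 530.4 in wound. Each miRNA was read by a pair of probes of 10 spots each. The probes of miR-26a-5p differed between groups by -1.71 and -1.60 on the log2 scale, and those of miR-26b-5p by -1.88 and -1.68. The coefficient of variation over the spots of a probe was 1.3% to 12.4% for miR-26a-5p and 4.3% to 10.2% for miR-26b-5p, so spot noise was small against the differences.

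**Figure D1:**
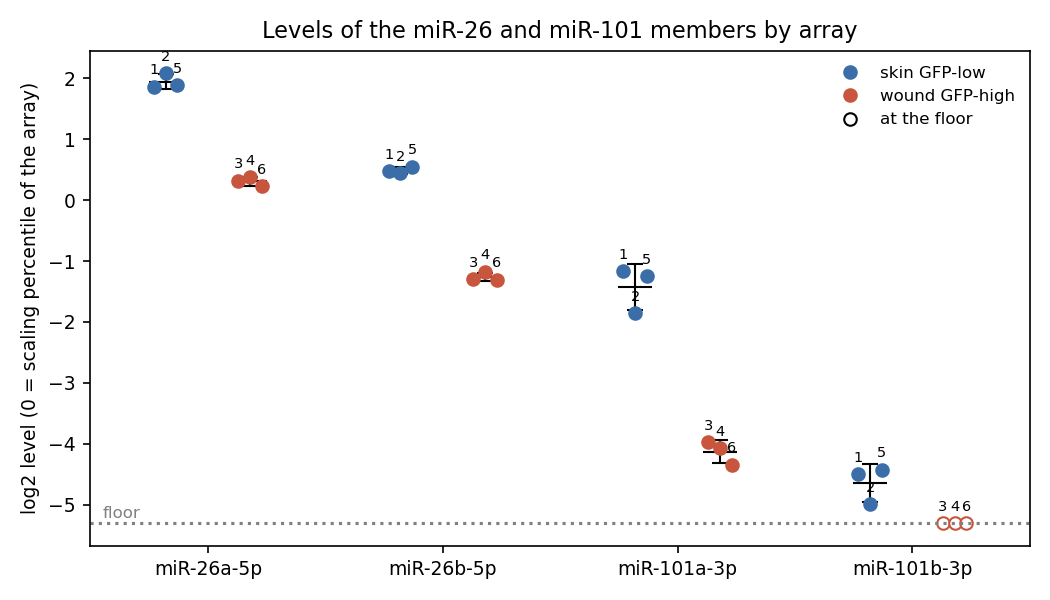
Log2 level of the 4 tested members (y axis, 0 is the scaling percentile of an array) on each array, with the preparation number above each point, bars for mean ± SD of 3 arrays, and open points at the floor for dim signals. The wound points lie below the skin points for each member, and miR-101b-3p lies at the floor on all wound arrays.

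mmu-miR-101a-3p had the largest decrease of the 4 tested members. Its log2 level was -1.17, -1.86 and -1.25 on skin arrays 1, 2 and 5 and -3.97, -4.07 and -4.34 on wound arrays 3, 4 and 6. Skin array 2 was lower than the other skin arrays, yet remained far above the highest wound array. The level fell from -1.42 ± 0.38 to -4.13 ± 0.19 (n = 3 each), a 6.51-fold decrease (95% interval 4.37 to 9.70, log2 difference -2.70, SE 0.22, adjusted p = 2.6e-04 in limma). Of the 222 miRNAs tested, 1 had a larger decrease, against 10 for miR-26b-5p and 11 for miR-26a-5p.

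The size of the miR-101a-3p decrease was less certain than its direction, since the wound signal was dim. Averaged over its probes, the processed signal of miR-101a-3p was 662.7, 343.7 and 747.2 units on skin arrays 1, 2 and 5 and 50.3, 65.2 and 56.2 on wound arrays 3, 4 and 6. Both probes still had 100% of their spots well above background on every array, and they differed between groups by -2.76 and -2.66. With a floor 4 times as high the log2 difference was -1.88. With normexp background correction, which models the background over spots without outlier flags, it was -2.14 when quantile normalization followed and -1.70 when 75th percentile scaling did. It passed in limma in each of these. With flagged spots kept in the normexp fit and 75th percentile scaling, the difference was -0.37 and did not pass (adjusted p = 0.62 in limma).

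mmu-miR-101b-3p was near the limit of detection. One of its probes stayed too dim to be called well above background on each of the 6 arrays, and the other passed on the 3 skin arrays but on no wound array. The signal of the brighter probe was 105.5, 60.8 and 135.4 units on skin arrays 1, 2 and 5 and 23.5, 36.1 and 26.9 on wound arrays 3, 4 and 6. These groups did not overlap. On wound array 4, 50.0% of its spots were well above background, where over 50% was required. For the brighter probe the skin level was at least 1.96-fold that in wound, and for the mean of both probes at least 1.34-fold. These bounds set the mean skin level against, per wound array, the higher of the probe's own level and the lowest signal that was well above background.

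On the floored scale used for the test, miR-101b-3p fell from -4.64 ± 0.31 to -5.30 on every wound array, which is the floor (log2 difference -0.66, SE 0.16, adjusted p = 0.017 in limma). A group at the floor has no measured spread, and the floor also limits the size of the difference, so this p is not reliable. The call was lost without skin array 1 or without any 1 of the wound arrays (adjusted p of 0.0534 to 0.057 in limma). The direction was not kept with normexp followed by 75th percentile scaling (0.02, adjusted p = 0.92 in limma). The decrease was larger in the scanner's total signal per miRNA (-1.62, adjusted p = 0.0012 in limma) and in the authors' table with columns matched by value (-1.82, adjusted p = 0.0027 in limma).

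The remaining arms were silent at this sensitivity. For miR-26b-3p, the 4 probes had processed signals of -4.6 to 6.7 units, and for miR-101a-5p, the 4 probes had -9.1 to 9.8 units. None of their spots was well above background on any array, so neither name was tested and no fold is given. A lower level in either group was not detectable here. The opposite arms of both miR-26a precursors and of miR-101b had no name on the array.

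**Figure D2:**
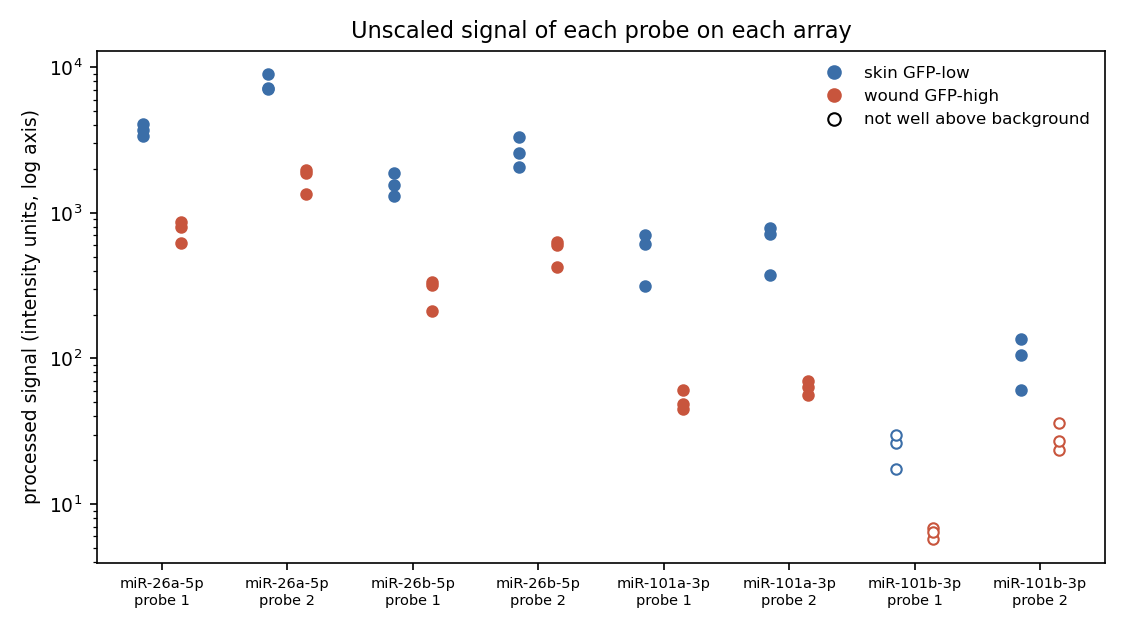
Processed signal in intensity units (log axis, before scaling) of the 8 probes of the tested members on each array, with open points where a probe was not well above background. Each probe was higher on every skin array than on any wound array, and levels of different probes are not comparable with each other.

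Set against the rest of the array, the members lay among the minority of miRNAs that were lower in wound. Over all tested miRNAs, 144 of 222 differed at an adjusted p under 0.05 in limma (64.9%), of which 46 were lower in the wound cells (20.7%) and 98 higher (44.1%). Of the members, 4 of 6 were tested, and 4 of these were lower, 0 higher. All 3 wound values lay below all 3 skin values for each of the 4, as they did for 21.2% of tested miRNAs; groups were separate in either direction for 69.8%. miR-101b-3p passed the filter on dim signals only through the skin arrays, so its direction was fixed by that filter. The other 3 were well above background on all arrays, where 38 of 156 names were called lower (24.4%). Decreases over 2-fold were called for 22 of 222 miRNAs (9.91%), among them these 3 members. The median difference was -1.69 for the 4 tested members and 0.38 for all tested miRNAs. The members were chosen with earlier results of these data known, and these counts are a description.

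The choice of scaling changed the sizes of these differences but not their direction. Under the main scaling and each of the 75th percentile of all probes, the median, quantile normalization and no scaling, the difference ranged from -1.43 to -2.32 for miR-26a-5p, from -1.75 to -2.44 for miR-26b-5p, from -2.70 to -3.39 for miR-101a-3p and from -0.66 to -0.92 for miR-101b-3p. All 4 were called lower in limma under each of these scalings, except miR-101b-3p with no scaling (adjusted p = 0.0523). The median of all tested miRNAs moved by -0.57, -0.38, -0.38 and -0.47 under the 4 other scalings, in that order. The share of all calls that were higher in wound was 68.1% under the main scaling and 40.6%, 50.0%, 51.1% and 50.0% under the others. Measured from that median, the differences were -1.43 to -2.13 for miR-26a-5p, -1.91 to -2.25 for miR-26b-5p and -3.08 to -3.21 for miR-101a-3p.

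**Figure D3:**
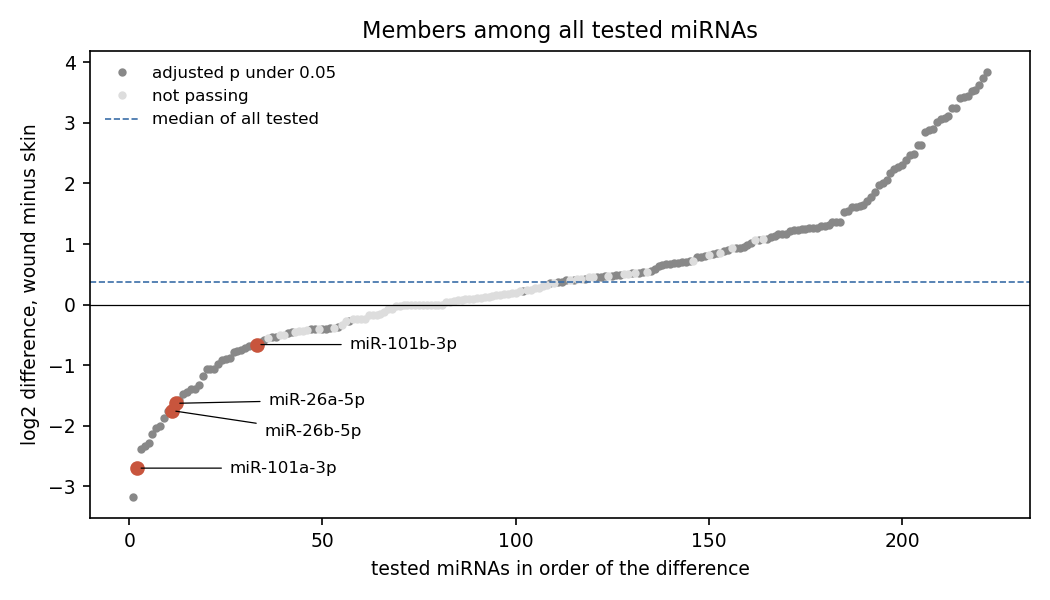
Log2 difference, wound minus skin, of the 222 tested miRNAs in rising order, with the 4 members in colour and the median of all tested (0.38) dashed. Grey points passed at an adjusted p under 0.05 in limma and pale points did not; miR-101a-3p stands at the low end, with 1 miRNA below it.

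Whether members fell by the same amount was read from the log2 ratio of a pair within each array, which does not depend on a scaling factor. miR-26a-5p over miR-26b-5p was 1.38, 1.64 and 1.34 on skin arrays 1, 2 and 5 and 1.62, 1.56 and 1.54 on wound arrays 3, 4 and 6. These ranges overlapped, and the mean ratio differed by 0.12 between groups (exact two-sided permutation test, p = 0.4, adjusted over 3 pairs 0.4). That difference was 0.47 under quantile normalization, where the groups did not overlap (exact permutation p = 0.1), and 0.30 when normexp came before it (p = 0.3). The ratios over miR-101a-3p were higher in wound. The ratio of miR-26a-5p over miR-101a-3p was 3.02, 3.94 and 3.13 in skin and 4.29, 4.44 and 4.57 in wound, a difference of 1.07. For miR-26b-5p over miR-101a-3p it was 1.64, 2.30 and 1.79 in skin and 2.66, 2.89 and 3.03 in wound, a difference of 0.95. Neither of these pairs of groups overlapped. Their exact two-sided permutation p was 0.1 each (adjusted 0.15), where 0.1 is the smallest value that 3 against 3 arrays can give. The size depended on the processing: these differences were 1.78 and 1.31 under quantile normalization, 0.71 and 0.41 with normexp before it, 0.25 and 0.13 with a floor 4 times as high and 0.08 and 0.09 with normexp and 75th percentile scaling. The groups overlapped for both pairs in the last 2 of these, and for miR-26b-5p over miR-101a-3p with normexp and quantile normalization.

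**Figure D4:**
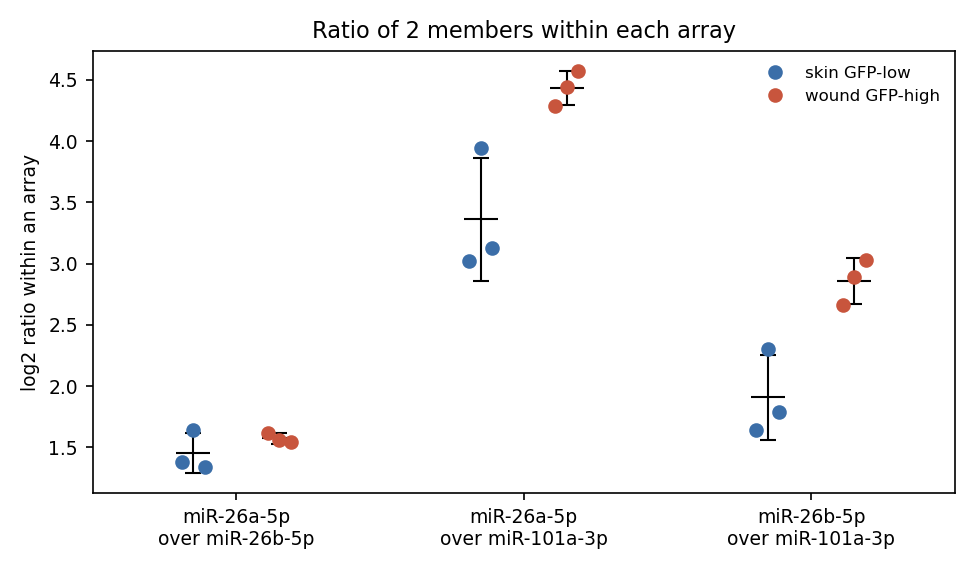
Log2 ratio of 2 members within an array (y axis) for the 3 pairs well above background on all 6 arrays, with mean ± SD of 3 arrays per group. The wound and skin points overlap for miR-26a-5p over miR-26b-5p and are separate for the pairs with miR-101a-3p.

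Other miRNAs reported to target Ezh2 were lower in part. A list of such miRNAs, taken with both arms of each, had 12 names on the array, of which 5 were tested. In limma 2 of these fell, 0 rose and 3 did not pass, and their median difference was -0.08 against 0.38 for all tested, of which 20.7% were lower and 44.1% higher. These calls depended on the processing: 3 were lower under each of the 75th percentile of all probes, the median and quantile normalization, while 0 were lower and 2 higher with normexp and 75th percentile scaling. miR-30d-5p was -2.74, -2.53 and -2.72 on skin arrays 1, 2 and 5 and -3.14, -3.37 and -3.53 on wound arrays 3, 4 and 6, a difference of -0.69. miR-98-5p, of the let-7 family, was -2.86, -2.71 and -2.78 in skin and -3.29, -3.06 and -3.19 in wound, a difference of -0.40. For both of these the groups did not overlap, and both decreases were smaller than those of the miR-26 strands. miR-214-3p, a product of the mesenchymal miR-199a and miR-214 transcript, differed by 0.45 without passing (unadjusted p = 0.075, adjusted p = 0.11 in limma), with skin values of 0.09 to 0.80 and wound values of 0.82 to 1.05. miR-25-3p overlapped between groups (-0.08), and miR-214-5p lay at the floor on every array. The difference of 0 for miR-214-5p is therefore not a measured lack of change, though it enters the count not passing and the median above. miR-144-3p, whose seed ACAGUAU differs from that of miR-101a-3p at its last base, stayed near background on every array, as did miR-124-3p, miR-124-5p, miR-137-3p, miR-138-5p, miR-138-1-3p and miR-217-5p.

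The closest profile over the 6 arrays was that of a name of the miR-29 family, which targets collagen transcripts, for miR-26b-5p and miR-101a-3p. Likeness was the root mean square distance between log2 values centred on each miRNA's own mean, over 6 arrays and 153 other miRNAs well above background on all of them. It is a description, largely set by the difference between groups. miR-26b-5p lay closest to miR-29a-3p (distance 0.03, difference -1.75), then miR-100-5p (0.12) and miR-195a-5p (0.16). For miR-26a-5p the closest were miR-23a-3p (0.08), miR-29a-3p (0.11) and miR-125b-5p (0.12). For miR-101a-3p they were miR-29b-3p (0.18), miR-29c-3p (0.22) and miR-181a-5p (0.37). For miR-101b-3p, whose profile is cut off by the floor, they were miR-199b-5p (0.11), miR-27a-3p (0.14) and miR-106b-5p (0.16). By the same measure miR-26a-5p and miR-26b-5p lay 0.11 apart, miR-26b-5p and miR-101a-3p 0.53 and miR-101a-3p and miR-101b-3p 1.03.

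Values of the miR-29 and miR-30 families, lists chosen with earlier results known, are given for comparison. In the miR-29 family 3 of 4 tested names were lower and 1 did not pass, with differences of -2.38 to 0, where 20.7% of all tested miRNAs were lower and 64.9% changed either way. The miR-29 name that did not pass lay at the floor on every array, so its 0 is not a measured lack of change. In the miR-30 family 3 of 5 tested names were lower and 2 did not pass, with differences of -1.18 to 0.13. Differences between these families and the miR-26 and miR-101 members were not tested.

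**Figure D5:**
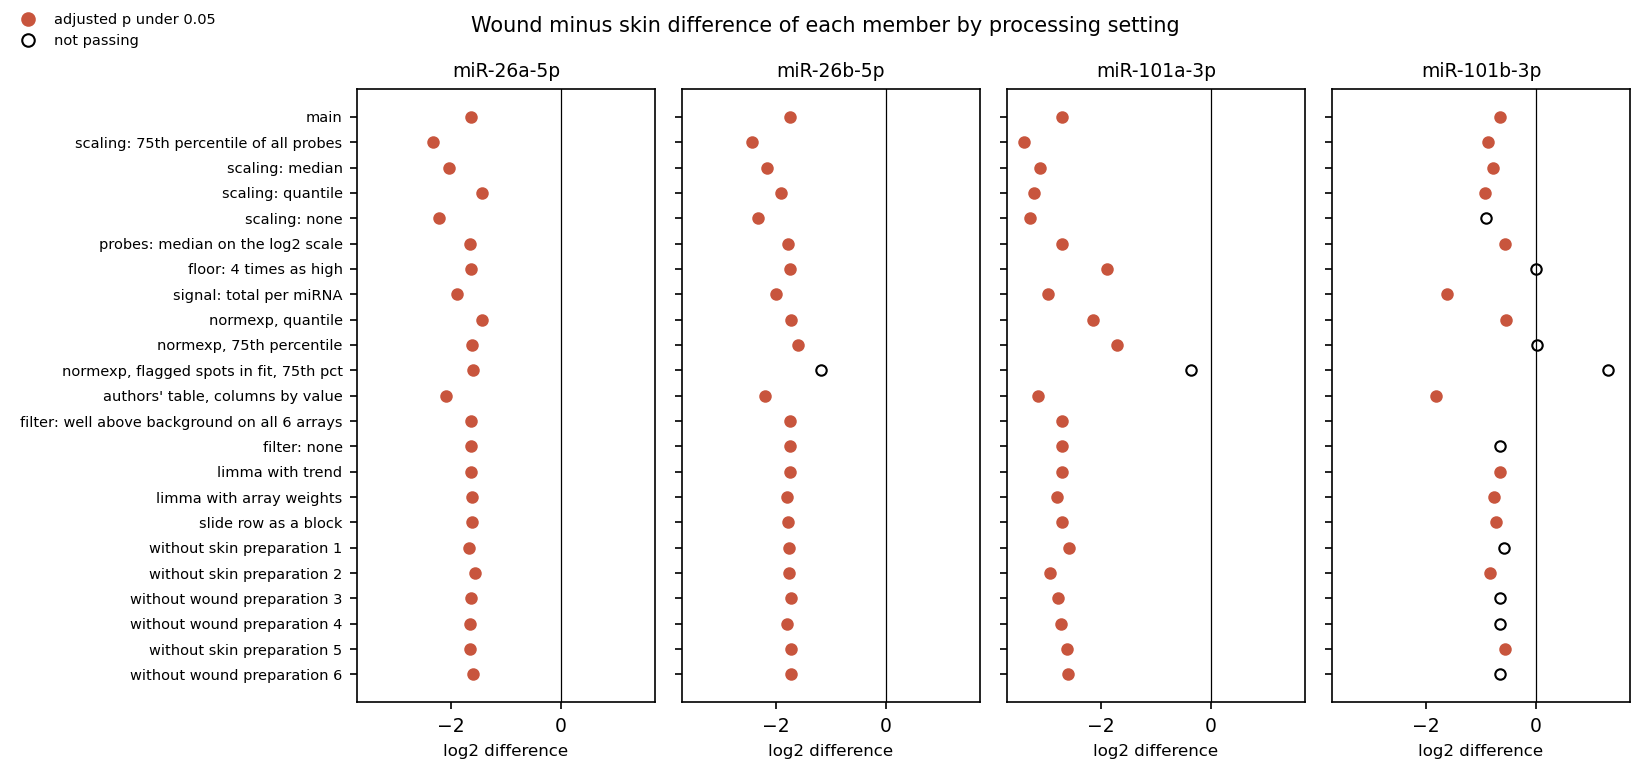
Log2 difference, wound minus skin (x axis), of each member under each processing setting (y axis), with filled points at an adjusted p under 0.05 in limma and open points otherwise. miR-26a-5p stays between -1.43 and -2.32, while miR-101b-3p is 0.02 with normexp and 75th percentile scaling and 1.30 when flagged spots stay in that correction; the authors' table read by its column numbers is not drawn.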

How the data were processed

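Spots were quantified in Agilent Feature Extraction 10.7.3.1, per the file headers. Each deposited file gives an intensity per spot, linear, background-subtracted and not normalized between arrays. The authors' deposited log2 table was compared over the 214 to 250 rows above the lowest value of each column. There it equals the log2 total signal per miRNA minus 1 constant per array, with no further step recorded in the labels. Rows at the lowest value were not compared. For each of 1928 probes the processed signal was averaged over spots without outlier flags (2.14% to 3.11% of spots were flagged, 0 saturated) and scaled to the 75th percentile of those probes that all 6 arrays detected well above background. The probes for each miRNA were averaged, raised to a floor of 0.0253 (-5.30 on the log2 scale) and taken to log2. A miRNA was tested when every array of at least 1 group had the same probe well above background. For the comparison of groups, linear models were fitted in limma 3.58.1 (eBayes, two-sided, R 4.3.3), adjusting p-values over 222 miRNAs by Benjamini-Hochberg, and pairs with exact permutation tests (scipy 1.17.1). The fit was tried on simulated data with normal noise around the skin means. These had no floor applied to the noise and no shift between arrays, so they do not bear on members at the floor or on the scaling. The number of arrays limits the precision.

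Named miRNAs are the members, tested names of a list of other miRNAs linked to Ezh2, and the 3 most alike profiles of each leading member. Members, lists and tests were chosen with earlier results of these data known. Normexp (offset 50) used median signals and left flagged spots out of its fit. Alternatives covered scaling, background, probe summary, floor, filter, moderation, weights, slide row, each array left out and the authors' table.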

Additional observations from a re-analysis of the deposited data

How the results depend on the processing

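Over the alternatives other than the authors' table by column number and normexp with flagged spots, miR-26a-5p, miR-26b-5p and miR-101a-3p kept their direction and passed in limma; leaving out each array gave -1.67 to -1.56, -1.79 to -1.72 and -2.92 to -2.57. With the authors' table by column number, differences were 0.64 for miR-26a-5p, 0.82 for miR-26b-5p, 1.29 for miR-101a-3p and 0.91 for miR-101b-3p, pair ratios -0.19 (miR-26a-5p over miR-26b-5p), -0.65 and -0.46 (miR-26a-5p and miR-26b-5p over miR-101a-3p), and 0 miRNAs passed in limma (1 at an unadjusted p under 0.05), against 131 with columns matched by value. miR-101b-3p was -0.91 with no scaling, 0 with a floor 4 times as high, where every array lay at the floor, -0.66 without a filter (adjusted p = 0.1 in limma), not tested when all 6 arrays had to be well above background, 0.02 with normexp and 75th percentile scaling, -1.62 with the total signal per miRNA, -1.82 with the authors' columns matched by value, and -0.84 to -0.56 with each array left out. Changed miRNAs numbered 144, 78 with the higher floor and 128 to 142 with an array left out. Normexp depended on flagged spots: 1, 4 and 7 of them, on wound array 4, skin array 5 and wound array 6, had a local background above their signal. With them in its fit and 75th percentile scaling, 19 miRNAs changed, against 156 without them. With them in, the differences were -1.18 for miR-26b-5p, -0.37 for miR-101a-3p and 1.30 for miR-101b-3p, none passing in limma, with pair ratios of -0.43, -1.23 and -0.80 in the order above. Without flagged spots miR-26a-5p over miR-26b-5p was -0.01 with 75th percentile scaling and 0.30 with quantile normalization. Among the other miRNAs linked to Ezh2, 1 was higher with quantile normalization, with normexp and quantile normalization and with array weights, 2 with normexp and 75th percentile scaling and 0 to 1 with an array left out (1 without skin array 2); 0 were lower under both normexp fits with 75th percentile scaling and with the authors' table by column number. Where no cause is stated, the cause was not tested. The row on the slide held both groups: row 1 had 2 skin arrays and 1 wound array, row 2 had 1 skin array and 2 wound arrays. With the row as a block the differences were -1.61, -1.78, -2.71 and -0.72 (members in the order above). Within rows 1 and 2, with a single array on 1 side of each, they were -1.65 and -1.58 for miR-26a-5p, -1.76 and -1.79 for miR-26b-5p, -2.46 and -2.96 for miR-101a-3p and -0.56 and -0.88 for miR-101b-3p. The fits by matched columns, normexp with 75th percentile scaling and normexp with flagged spots were added after the data were seen. Signal near background limits miR-101b-3p and the silent arms.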

Other observations

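Within skin, preparation 2 lay apart from preparations 1 and 5 for many of the miRNAs named here, in both directions. On the log2 scale its level lay -0.65 from the mean of the other two for miR-101a-3p, -0.53 for miR-101b-3p and 0.21 for miR-26a-5p, where preparations 1 and 5 lay 0.08, 0.07 and 0.02 apart. For miR-26b-5p it lay -0.07 away, as far as preparations 1 and 5 lay apart (0.07). Among the miRNAs most alike to the members, miR-29b-3p lay -0.82 away and miR-29c-3p -0.50, and the distance was -0.38 for miR-199b-5p, -0.26 for miR-195a-5p and -0.23 for miR-27a-3p, against 0.24 for miR-125b-5p and 0.30 for miR-181a-5p, each with preparations 1 and 5 within 0.02 to 0.08. Preparations 1 and 5 lay further apart for miR-23a-3p (0.16) and miR-106b-5p (0.20), where preparation 2 lay 0.33 and -0.29 away. For miR-29a-3p (-0.04) and miR-100-5p (0.09) it was within the 0.10 between preparations 1 and 5. This was noticed after the values were seen, and 3 arrays of a group allow no test of it.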
